A study of Mus musculus with 8 samples.

Results

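The proteins of the synaptonemal complex were examined by their mRNA in mouse testis at postnatal day 8, with and without a deficiency of the kinase VRK1. Members were the probes that the array files name for 7 genes, Sycp1, Sycp2, Sycp3, Syce1, Syce2, Tex12 and Hormad1, of 27666 gene names on the array. They had 12 of its 41174 probes. Of them 9 carried the gene's present symbol, and the 3 Sycp2 probes carried the older name 4930518F03Rik and were matched through their accession NM_177191.

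The synaptonemal complex is the protein ladder that joins homologous chromosomes along their length in meiotic prophase. Sycp1 forms the transverse filaments that bridge the homologues, Syce1, Syce2 and Tex12 belong to the central element where these filaments meet, and Sycp2 and Sycp3 build the lateral elements on the chromosome axes. Hormad1 sits on axes before they synapse and takes part in the surveillance of synapsis. In the mouse testis, germ cells enter meiosis in the second postnatal week, so that tissue of this age holds spermatogonia and the earliest spermatocytes beside somatic cells.

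The study compared 4 wild type with 4 VRK1-deficient testis samples, each hybridised alone to a 1-colour Agilent array after Cy3 labeling of total RNA. The groups were male mice of the same age, 8 days, and no treatment is given. VRK1 is a serine/threonine kinase, and the mutants were homozygous for a β-geo gene trap in intron 3 of Vrk1, derived from the ES cell line RRR178 and backcrossed to C57BL/6. The allele is hypomorphic and leaves some full-length transcript, the insertion is present in every cell, and whole testes were used. Signals are given below as log2 of the processed signal over that array's 75th percentile, so that a difference of -1 is a signal at 50% of the other. Changes are VRK1-deficient minus wild type. Because RNA came from whole testis, fewer cells of a type and less RNA per cell cannot be told apart in any of them.

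Each of the 8 arrays had 41174 probes after its control spots were left out, and a probe entered the test when its signal stood well above background on 4 or more of them, as 26962 did. The 75th percentile signal was 642 to 851 on wild type and 548 to 745 on VRK1-deficient arrays. The Vrk1 probe, which checks the labels, was at -0.20 to 0.59 in wild type and -4.17 to -3.58 in VRK1-deficient testis, with no overlap. Wild type replicate 1 stood apart: its correlation across probes was 0.987 to 0.990 with the VRK1-deficient arrays and 0.970 to 0.986 with the other wild type arrays. Slide 1 carried replicates 1 and 2 of both genotypes and slide 2 carried replicates 3 and 4. Wild type samples lay at array positions 1 and 2 and VRK1-deficient samples at positions 3 and 4, so position and genotype cannot be told apart.

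The probes are 60 bases long and are given here because each value below rests on hybridization to these letters. Printed are 6 of the 12 probes, each with at least 1 forward reading frame without a stop codon, from the transverse filament, the central element, the lateral elements and the unsynapsed axis. Coordinates are mm7, from the array files.
Sycp1 A_51_P340003 (chr3:102647366-102648037, minus strand): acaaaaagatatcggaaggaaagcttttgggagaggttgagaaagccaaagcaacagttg
Tex12 A_52_P215798 (chr9:50536002-50536061, minus strand): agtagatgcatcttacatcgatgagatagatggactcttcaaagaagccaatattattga
Sycp2 A_51_P274409 (chr2:178880436-178881800, minus strand): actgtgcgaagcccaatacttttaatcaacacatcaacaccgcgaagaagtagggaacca
Sycp2 A_52_P96542 (chr2:178846208-178846261, minus strand): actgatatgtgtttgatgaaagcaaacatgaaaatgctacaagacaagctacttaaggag
Sycp3 A_51_P274465 (chr10:88027463-88030553, plus strand): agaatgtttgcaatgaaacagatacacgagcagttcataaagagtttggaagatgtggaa
Hormad1 A_51_P497875 (chr3:95454122-95454181, plus strand): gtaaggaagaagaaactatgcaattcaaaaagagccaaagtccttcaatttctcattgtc
The mm7 spans of the Sycp1 probe (672 bases), of Sycp2 A_51_P274409 (1365 bases) and of the Sycp3 probe (3091 bases) are longer than the probe itself, so each of these matches the genome in more than 1 block.

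Each of the 10 probes tested had a lower mean in VRK1-deficient testis, and 1 of them, on Sycp2, passed the test at an adjusted p under 0.05. Over all tested probes 1.98% were called lower, and 45.5% had a lower mean. The brightest probe of each gene had a log2 change between -1.67 and -0.72, with a median of -1.30 over the 7 genes against 0.04 over all tested probes. The change of 6 of these 7 probes was beyond -1. An unadjusted limma p under 0.05 was reached by 10 of 10 member probes and, with a lower mean, by 14.8% of all tested probes. Sycp2 and Syce1 are in the study's own list of genes lower in these same samples, so their direction is not independent evidence.

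The transverse filament gene Sycp1 was measured by 1 probe (NM_011516), well above background on all 8 arrays. Its log2 signal was -0.50, 0.50, 1.11 and 0.99 in wild type replicates 1 to 4 and -1.31, -0.44, -0.56 and -1.16 in VRK1-deficient replicates 1 to 4. The 4 mutant values lay below wild type replicates 2, 3 and 4, and wild type replicate 1 lay among them. The mean was 0.53 ± 0.73 in wild type and -0.87 ± 0.43 in VRK1-deficient testis (SD, n = 4 each). The change was -1.40 ± 0.36 (SE, n = 4 per genotype, limma adjusted p = 0.0589), a signal at 38.0% of wild type, which did not pass the test.

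The central element was represented by Syce1, Syce2 and Tex12. Syce1, which binds the ends of the Sycp1 filaments, was measured by A_51_P444137 (AK016694; mm7 chr7:137194617-137194676, minus strand). Its log2 signal was 1.94, 3.11, 3.25 and 3.52 in wild type replicates 1 to 4 and 1.34, 2.04, 2.03 and 1.44 in VRK1-deficient replicates 1 to 4. VRK1-deficient replicates 2 and 3 reached above wild type replicate 1 and stayed below the other wild type arrays. The change was -1.24 ± 0.33 (SE, n = 4 per genotype, limma adjusted p = 0.0629), a signal at 42.2% of wild type.

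Syce2, which assembles with Tex12 into the fibres of the central element, had the smallest change of the 7 genes. Its probe A_51_P273538 (NM_027954; mm7 chr8:83473344-83473403, plus strand) read 2.89, 3.75, 4.10 and 4.07 in wild type replicates 1 to 4 and 2.71, 3.12, 3.26 and 2.84 in VRK1-deficient replicates 1 to 4. Wild type replicate 1 lay between the mutant values, and the other 3 wild type arrays lay above all of them. The change was -0.72 ± 0.27 (SE, n = 4 per genotype, limma adjusted p = 0.118), a signal at 60.5% of wild type.

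Tex12 was measured by 2 tested probes separated by 38 bases on the minus strand of mm7 chromosome 9. A_51_P116609 (chr9:50535904-50535963) read -0.13, 1.21, 1.61 and 1.40 in wild type replicates 1 to 4 and -0.72, 0.21, 0.10 and -0.69 in VRK1-deficient replicates 1 to 4. A_52_P215798 (chr9:50536002-50536061) read -1.70, -0.55, 0.19 and -0.02 in wild type replicates 1 to 4 and -2.42, -1.43, -1.48 and -2.09 in VRK1-deficient replicates 1 to 4. Both put wild type replicate 1 within the range of the mutants and the other wild type arrays above it. Their changes were close to each other, -1.30 ± 0.39 (SE, n = 4 per genotype, limma adjusted p = 0.0765) and -1.33 ± 0.40 (SE, adjusted p = 0.0787), and their correlation over the 8 arrays was 0.99. The third probe filed under Tex12, A_52_P1091857 (AK157540), lies 5242 bases away on the opposite strand (chr9:50541304-50541363) and was well above background on 0 of 8 arrays.

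Of the lateral element genes, Sycp2 gave the call. Its probe A_51_P274409 read -3.23, -2.14, -2.11 and -1.74 in wild type replicates 1 to 4 and -4.42, -3.89, -4.02 and -3.56 in VRK1-deficient replicates 1 to 4. Every mutant array lay below every wild type array, which held for 1 of the 10 member probes and 7.31% of all tested probes. Sycp2 fell by 1.67 on the log2 scale, with SE 0.31 (n = 4 per genotype, limma adjusted p = 0.0435), to 31.5% of wild type. The call was lost when any single array other than wild type replicate 1 was left out, with adjusted p from 0.0696 to 0.147, while the change itself stayed between -1.98 and -1.48. After normexp background correction the change was -0.76 (adjusted p = 0.0447).

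The other Sycp2 probes lie close together on mm7, 181 bases apart, and the nearer is 33933 bases from A_51_P274409. Of these A_52_P96542 read -4.19, -2.76, -1.64 and -1.52 in wild type replicates 1 to 4 and -4.99, -4.05, -3.32 and -3.62 in VRK1-deficient replicates 1 to 4. Here wild type replicate 1 lay within the mutant range, and the change was -1.47 ± 0.59 (SE, n = 4 per genotype, limma adjusted p = 0.143), or -0.71 after normexp background correction. A_51_P265794 was well above background on 0 of 8 arrays, although it is filed under the same gene and strand. The 2 tested Sycp2 probes had a correlation of 0.89 over the 8 arrays.

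Sycp3, the other main lateral element protein, was measured by A_51_P274465 (NM_011517). It read -3.17, -1.61, -0.55 and -0.85 in wild type replicates 1 to 4 and -3.78, -2.68, -2.41 and -2.90 in VRK1-deficient replicates 1 to 4. Wild type replicate 1 was lower than 3 of the 4 mutant arrays, and wild type replicates 2, 3 and 4 were higher than all 4. The wild type spread was wide, with a mean of -1.54 ± 1.17 in wild type and -2.94 ± 0.59 in VRK1-deficient testis (SD, n = 4 each). The change was -1.40 ± 0.54 (SE, n = 4 per genotype, limma adjusted p = 0.132), a signal at 37.9% of wild type, and was -0.93 after normexp background correction.

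Hormad1 had 1 probe that was well above background throughout, A_51_P497875 (NM_026489). It read -3.85, -2.47, -2.0002 and -1.74 in wild type replicates 1 to 4 and -4.13, -3.51, -3.39 and -3.61 in VRK1-deficient replicates 1 to 4. Wild type replicate 1 again lay within the mutant range and the other 3 wild type arrays above it. The change was -1.14 ± 0.41 (SE, n = 4 per genotype, limma adjusted p = 0.115), a signal at 45.3% of wild type, and was -0.58 after normexp background correction. The dimmer probe A_51_P497870 (chr3:95459143-95459522, plus strand) was well above background on 3 wild type arrays and 1 mutant array, VRK1-deficient replicate 3. It read -6.33, -5.70, -5.11 and -6.02 in wild type replicates 1 to 4 and -7.81, -7.74, -5.31 and -7.60 in VRK1-deficient replicates 1 to 4. Its change was -1.32 ± 0.54 (SE, n = 4 per genotype, limma adjusted p = 0.147), and it had the opposite sign, 0.13, after normexp background correction.

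**Figure D1:**
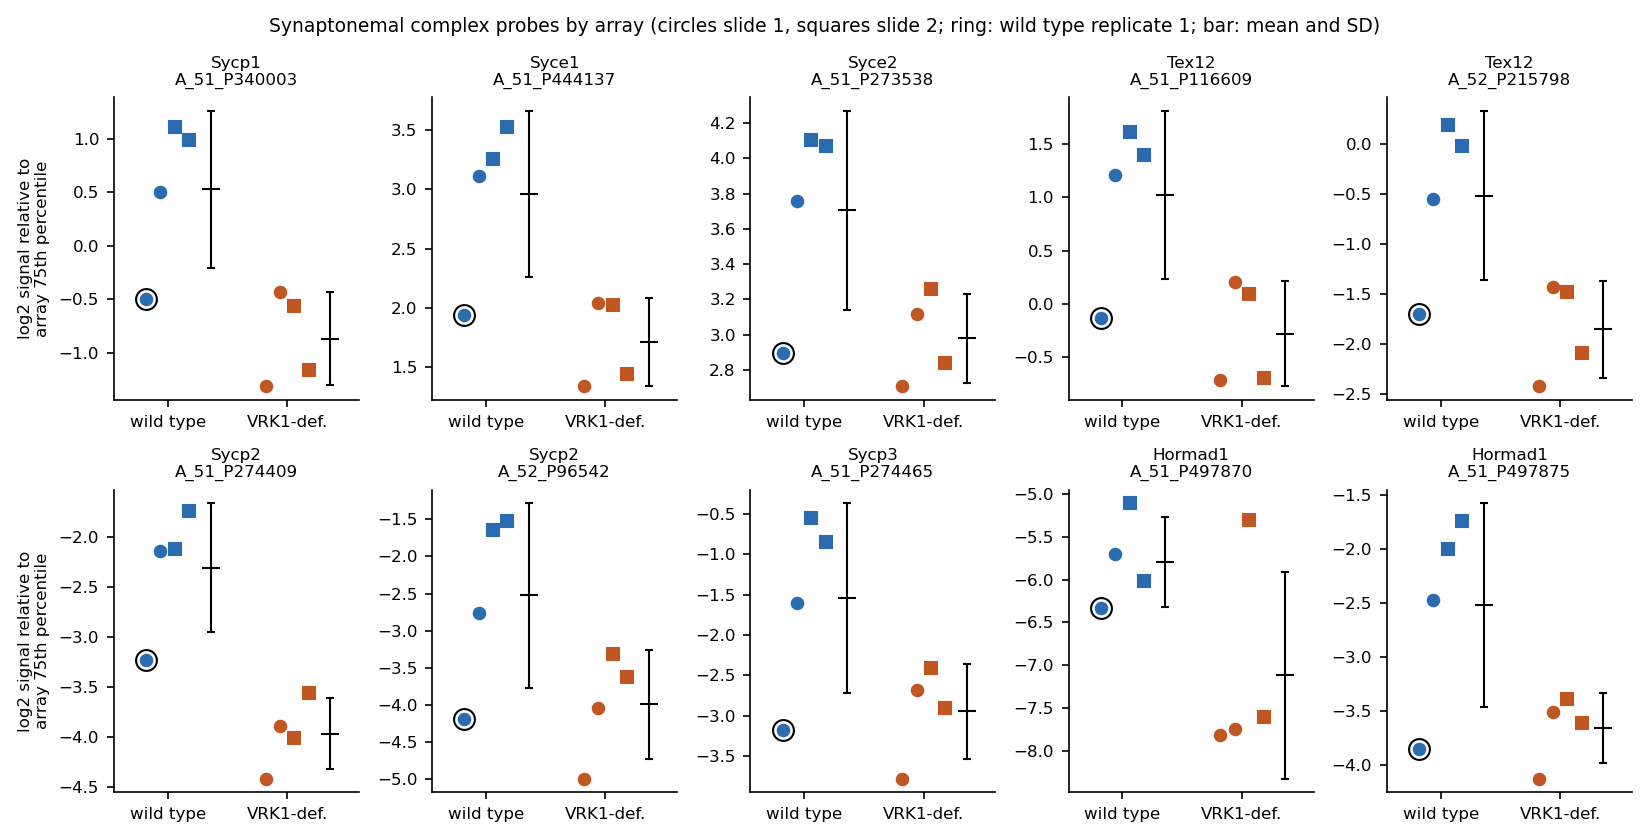
Each panel shows 1 tested probe, with the log2 signal relative to the array's 75th percentile on the vertical axis and genotype on the horizontal axis; points are arrays (circles slide 1, squares slide 2), bars are mean and SD of 4, and a ring marks wild type replicate 1. The ringed array is the lowest wild type array in all 10 panels, and the groups are apart in 1 panel, Sycp2 A_51_P274409.

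Wild type replicate 1 lay at the low end of the wild type group for these genes. It was the lowest wild type array on 10 of 10 member probes, against 30.7% of all tested probes. VRK1-deficient replicate 1 was likewise the lowest mutant array on 10 of 10, against 22.6% of all tested probes. All mutant arrays lay below wild type replicates 2, 3 and 4 on 9 of 10 member probes and 19.5% of all tested probes. Without wild type replicate 1, changes were -2.02 to -0.99 and 9 of 10 member probes were called lower, but 14.7% of all tested probes were then called lower as well. The probe not called was Hormad1 A_51_P497870 (adjusted p = 0.0884). When 1 of the remaining 7 arrays was omitted instead, limma called lower 0 member probes and 0.00742% to 0.0853% of all tested probes.

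Both slides gave lower means in VRK1-deficient testis for all 10 probes. Within slide 1, where wild type replicate 1 lies, changes were -1.76 to -0.41. There limma called lower 0 member probes and 0.0111% of all tested probes. Within slide 2 changes were -1.96 to -0.89 and 8 of 10 member probes were called lower, against 2.77% of all tested probes. Each of these is a comparison of 2 against 2 arrays.

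**Figure D2:**
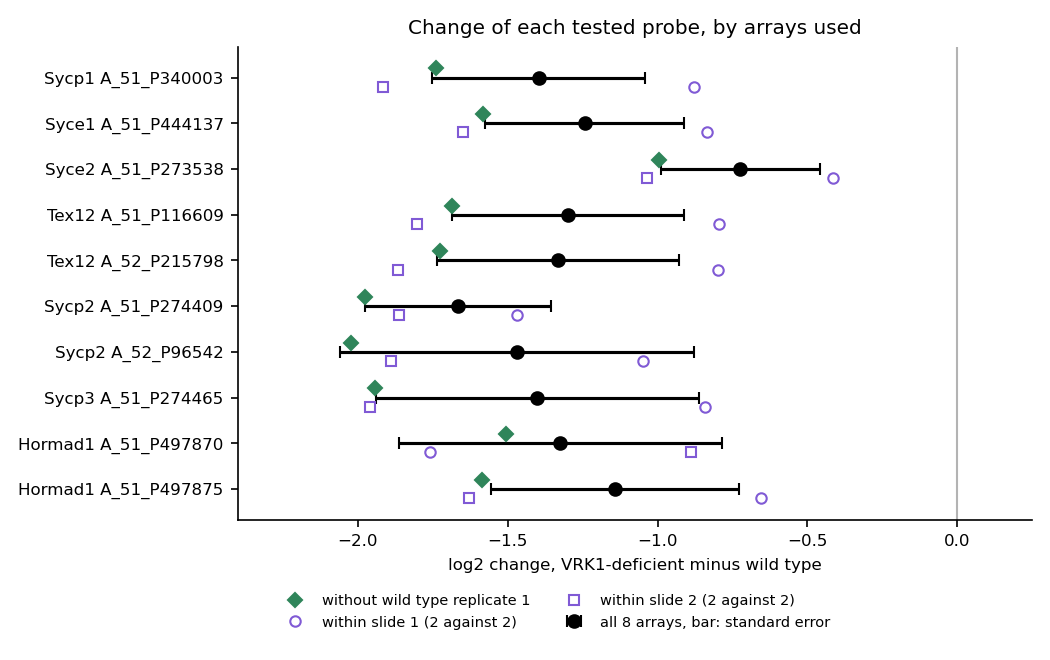
Log2 change of each tested probe on the horizontal axis, by arrays used: black points with standard error for all 8 arrays, green diamonds without wild type replicate 1, open circles and squares within slides 1 and 2. Every marker lies below 0; the changes without wild type replicate 1 run from -2.02 to -0.99.

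The 7 genes varied together across the arrays. Between the brightest probes of the genes, Pearson correlations over the 8 arrays were 0.88 to 0.99 with a median of 0.96 (21 pairs). Over the 4 wild type arrays alone they were 0.92 to 0.999 and over the 4 mutant arrays 0.09 to 0.998, with a median of 0.82. These are descriptions over few arrays, and the pairs share their RNA and array.

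Germ cell markers were lower on the same arrays. Of 9 germ cell markers, 9 had a lower mean in VRK1-deficient testis and 2 were called lower, with a median change of -0.85. The called markers were Tdrd1 (-1.11, adjusted p = 0.0498), a piRNA pathway protein, and Sall4 (-0.99, adjusted p = 0.0491), a transcription factor of spermatogonia. The lowest and highest of the others were Piwil2 (-1.05, adjusted p = 0.135), Nanos3 (-0.54, adjusted p = 0.0818), Mael (-0.81, adjusted p = 0.0816) and Ddx4 (-0.83, adjusted p = 0.117). The mean log2 signal of the 9 markers was 0.84 to 1.97 over wild type arrays, lowest in replicate 1, and 0.38 to 0.98 over mutant arrays. The part of germ cell content in the lower synaptonemal complex signals was not tested.

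**Figure D3:**
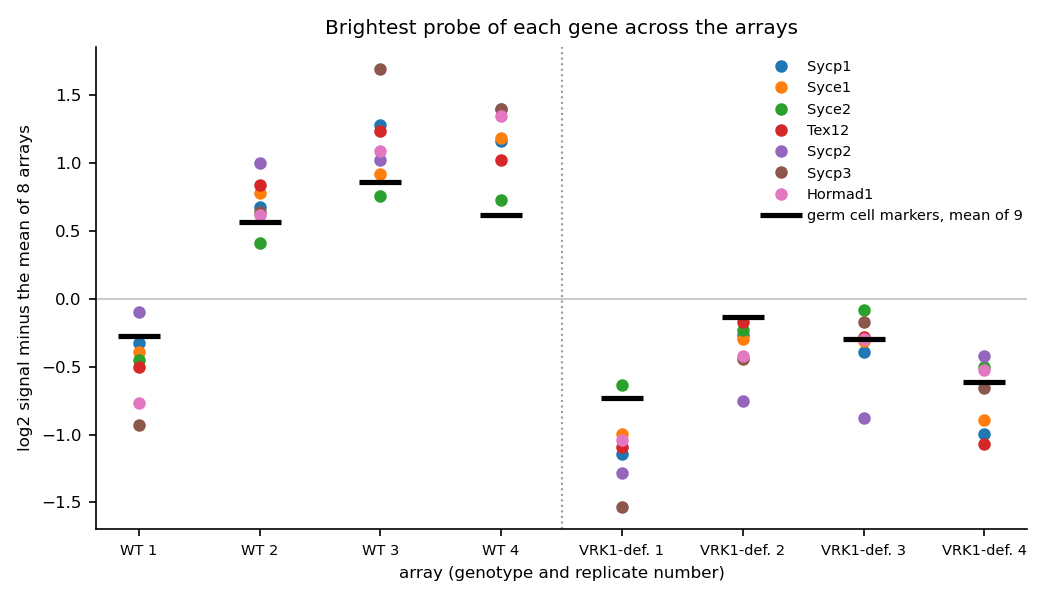
Log2 signal of the brightest probe of each gene, less its mean over the 8 arrays, for each array; black bars are the mean of the 9 germ cell markers treated the same way. Wild type replicates 2, 3 and 4 lie above 0 for all 7 genes, and wild type replicate 1 and the 4 VRK1-deficient arrays lie below 0.

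Member signals were also taken relative to the germ cell marker mean of the same array. That mean changed by -0.89, so the subtraction shifts the difference of genotype means by the same amount for every probe. Smaller differences for probes that fell follow from this. The markers include the spermatogonial gene Sall4, so their mean does not stand for 1 stage of germ cells. The difference was below 0 for the 9 of 10 probes whose change was beyond -0.89, from -0.78 to -0.25. It was 0.16 for Syce2, and the median was -0.44 over the 10 probes. Sycp1 was the only probe whose genotypes did not overlap on this scale, at -1.33 to -0.74 in wild type and -1.69 to -1.38 in VRK1-deficient testis. Over all tested probes, 0.556% had every mutant array below every wild type array on this scale. Sycp2 A_51_P274409 was at -4.08 to -3.47 and -4.87 to -4.06, a narrow overlap. Syce2 was at 2.06 to 2.34 in wild type and 2.14 to 2.45 in mutants. These values are differences of log2 signals and were given no test.

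**Figure D4:**
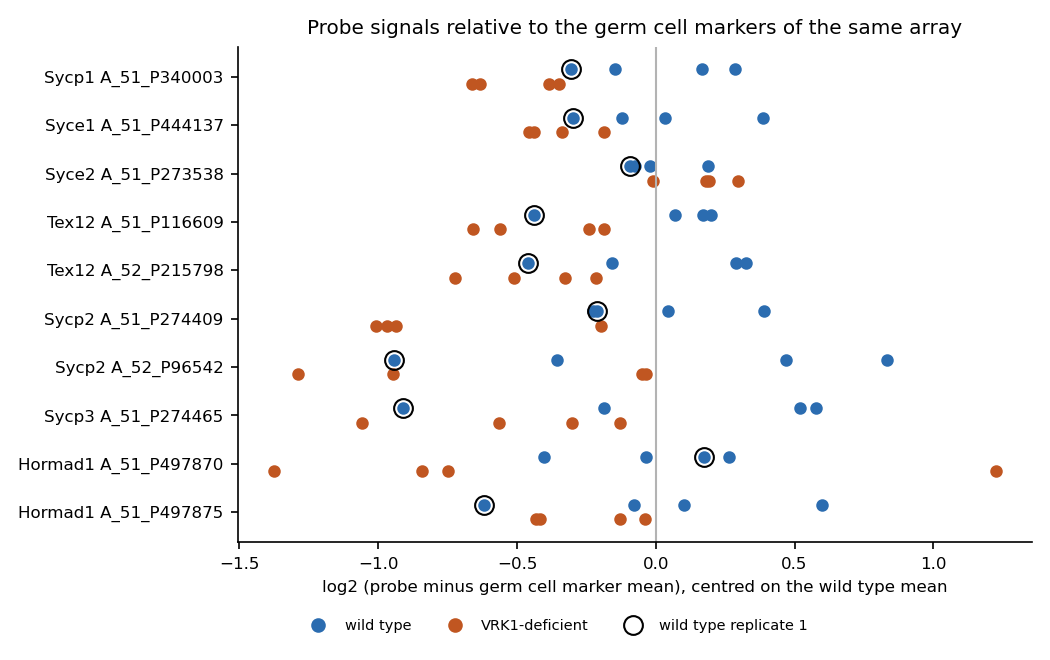
For each tested probe, the log2 signal less the mean of the 9 germ cell markers of the same array, centred on the wild type mean, on the horizontal axis; blue points are wild type arrays, orange points VRK1-deficient arrays and rings wild type replicate 1. The groups are apart for Sycp1 and overlap for the other 9 probes (over all tested probes, 0.556% have every mutant array below every wild type array on this scale), and Syce2 has the mutant mean above the wild type mean by 0.16.

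Genes whose products work on the same axes included cohesin subunits and regulators. Of 13 axis and complex partners, 8 had a probe and 7 were tested. All 7 had a lower mean and 1 was called, with a median change of -1.03. The called gene was Stag3, a meiotic cohesin subunit, at -1.03 ± 0.20 (SE, n = 4 per genotype, limma adjusted p = 0.0454). The other meiotic cohesin subunits were Smc1b (-1.15, adjusted p = 0.0796) and Rec8 (-0.94, adjusted p = 0.0663). The value of Syce3, a further central element protein, was -1.15 (adjusted p = 0.133), and Hormad2, a related axis protein, -1.18 (adjusted p = 0.0536). The smallest changes were Trip13 (-0.41, adjusted p = 0.161), the ATPase that removes HORMAD proteins from synapsed axes, and Rec114 (-0.84, adjusted p = 0.0823), an axis factor of break formation. Stag3 and Smc1b are in the study's list from these samples.

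Proteins that tether chromosome ends to the nuclear envelope, where synapsis often starts, included 6 tested genes of 7. Of these 5 had a lower mean and 0 were called by limma, with a median of -0.97. The lowest were Majin (-1.74, adjusted p = 0.0544) and Terb1 (-1.67, adjusted p = 0.0589), parts of the membrane-anchored telomere complex, and next came Kash5 (-0.97, adjusted p = 0.0799), which links to cytoplasmic motors, and Terb2 (-0.97, adjusted p = 0.172). The highest were Sun1 (-0.24, adjusted p = 0.258) and the kinase Cdk2 (0.03, adjusted p = 0.939). Of the 6 genes, 4 had an unadjusted p under 0.05, all lower. Terb1 was well above background on 2 of 4 mutant arrays and Terb2 on 3. After normexp background correction the list median was -0.34. The changes were then -0.69 for Majin, -0.43 for Terb1, -0.39 for Kash5, -0.02 for Terb2, -0.29 for Sun1 and 0.13 for Cdk2.

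Recombination genes ranged from -1.88 to 0.23. Of 18 genes 14 were tested, 12 had a lower mean and 2 were called, with a median of -0.39 against 0.04 over all tested probes. The called genes were Mei1, needed for break formation, at -1.88 ± 0.42 (SE, n = 4 per genotype, limma adjusted p = 0.0492), and Rnf212, a ligase of crossover sites, at -1.14 ± 0.23 (SE, n = 4 per genotype, limma adjusted p = 0.0454). Tex11, an X-linked crossover factor, was at -1.39 (adjusted p = 0.187), and at -0.12 after normexp background correction. Its probe was well above background on 3 wild type and 2 mutant arrays. Among the highest values were Mnd1 (0.23, adjusted p = 0.290) and Psmc3ip (-0.04, adjusted p = 0.894), which together assist strand exchange. Mei1 is in the study's list from these samples.

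Of 5 genes of meiotic entry, 4 were tested, all with a lower mean and 0 called by limma, with a median of -1.22. Their values were Meioc (-2.30, adjusted p = 0.0526), Stra8 (-1.48, adjusted p = 0.0760), Dazl (-0.96, adjusted p = 0.112) and Ythdc2 (-0.65, adjusted p = 0.153). Stra8 is the retinoic acid target that starts meiosis, Meioc and Ythdc2 keep germ cells in prophase, and Dazl, also among the germ cell markers, is an RNA-binding licensing factor. Of the 4 genes, 4 had an unadjusted p under 0.05. Stra8 and Dazl are in the study's list from these samples.

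Germline gene repressors, complexes that keep meiotic genes silent in other cells, had a median change of 0.18 against 0.04 over all tested probes. All 9 were tested, 3 had a lower and 6 a higher mean, and 0 were called by limma. The extremes were L3mbtl2 (-0.22, adjusted p = 0.545), E2f6 (-0.15, adjusted p = 0.470) and Pcgf6 (-0.01, adjusted p = 0.950) at the low end and Ring1 (0.43, adjusted p = 0.143), Cbx3 (0.25, adjusted p = 0.163) and Max (0.24, adjusted p = 0.204) at the high end. Of the 9 genes, 2 had an unadjusted p under 0.05, Ring1 and Cbx3, both higher. The share of all tested probes at that threshold with a higher mean was not computed, so these 2 have no background beside them.

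When single arrays were left out, the 6 list genes called on all 8 arrays behaved as Sycp2 A_51_P274409 did. Stag3, Mei1, Rnf212, Tdrd1, Sall4 and the smooth muscle gene Cnn1 had adjusted p from 0.0446 to 0.0498, and 0.00323 to 0.00698 without wild type replicate 1. Each lost its call when any of the other 7 arrays was left out (adjusted p 0.0662 to 0.151). Under other alternatives some were less stable than Sycp2. With quantile normalization Mei1 (limma adjusted p = 0.0513) and Sall4 (0.05005) lost their calls, and Sycp2 kept its call (0.0450). With the slide as a block 0 germ cell markers and 1 recombination gene were called, and Sycp2 kept its call (0.0473).

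Markers of other cells were read on the same arrays. Of 7 markers of later spermatocytes, 6 were tested, 5 had a lower mean and 0 were called, from Ccna1 (-1.05, adjusted p = 0.0864) to Pou5f2 (0.24, adjusted p = 0.464), while Pgk2 was below the detection needed for the test. Their mean signal was -1.86 to -1.21 over wild type and -2.20 to -1.82 over mutant arrays. Sertoli cell markers had a higher mean in 8 of 10 genes, with 0 called, from Rhox5 (-1.08, adjusted p = 0.111) to Amh (1.19, adjusted p = 0.115), and a mean signal of 2.15 to 2.89 over wild type and 2.63 to 2.96 over mutant arrays. The highest wild type Sertoli mean (2.89) was that of replicate 1, and 2.15 was the lowest among the other wild type arrays. Leydig cell markers (6 tested, 0 called) had mean signals of 1.02 to 1.67 over wild type and 1.29 to 1.91 over mutant arrays, and macrophage markers (5 tested, 0 called) -1.29 to -0.89 over wild type and -1.07 to -0.94 over mutant arrays. Of 5 peritubular markers 1 was called lower, Cnn1 (-0.99, adjusted p = 0.0446), and their mean signal was 3.32 to 3.56 over wild type and 3.07 to 3.55 over mutant arrays. By limma, an unadjusted p under 0.05 was reached by 4 of 6 later spermatocyte markers, all lower, and by 0 of 5 macrophage markers. It was reached by 6 of 10 Sertoli cell markers, of which Rhox5 and Cldn11 were lower and the others higher. In Leydig cells 2 of 6 markers reached it, Hsd3b1 and Lhcgr, both higher. Over all tested probes 14.8% reached it with a lower mean. The share that reached it with a higher mean was not computed, so the markers that were higher have no background beside them. The methods' t-test called 0 genes of any of the 11 lists after adjustment. The part of cell composition in the member signals was not tested.

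**Figure D5:**
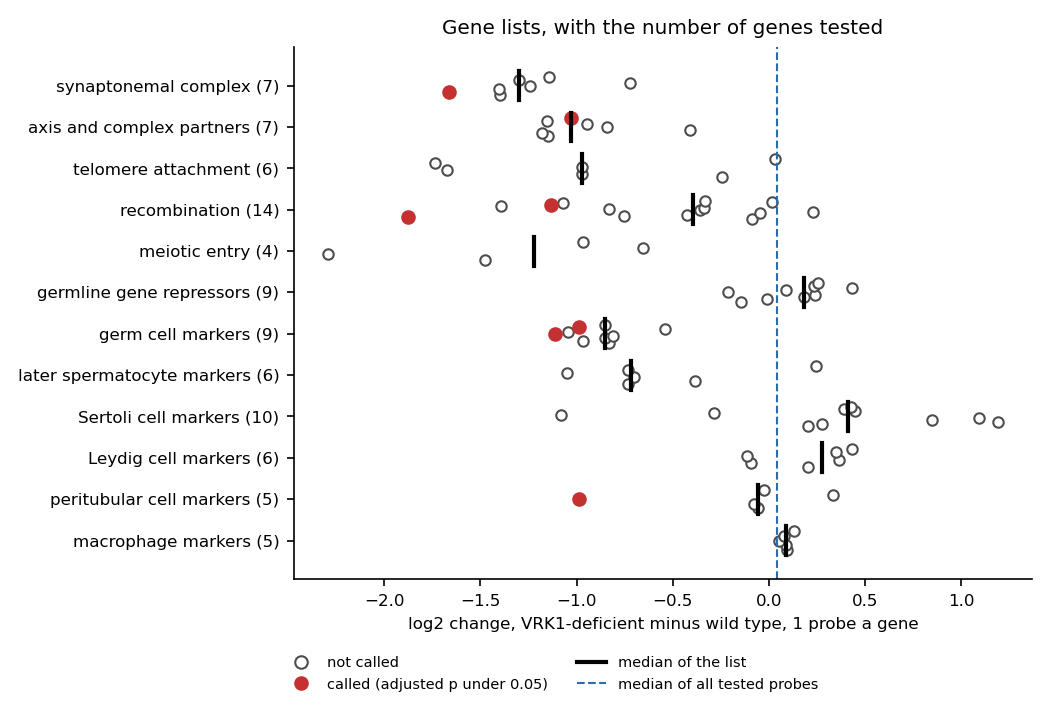
Log2 change of each tested gene, 1 probe a gene, in the synaptonemal complex set and 11 gene lists (number tested in brackets); red points were called, black bars are list medians and the dashed line is the median of all tested probes, 0.04. The synaptonemal complex, with a median of -1.30, meiotic entry, at -1.22, and the axis partners, at -1.03, lie lowest, and Sertoli cell markers highest at 0.41.

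Outside the 7 genes, 6 of the genes whose probes followed the members' mean profile most closely over the 8 arrays are given here, with Pearson correlations of 0.996 to 0.998. In order they were Ccdc172 (-0.95), Tex14 (-1.06), Smc1b (-1.15), Elavl2 (-0.86), Ccdc171 (-0.92) and Stk33 (-0.85), with the log2 change in brackets. Smc1b is a meiotic cohesin subunit and Tex14 a protein of germ cell bridges. None of the 6 was called by limma, with adjusted p from 0.0621 to 0.0896. The members' profile is led by the contrast of wild type replicates 2, 3 and 4 with the other 5 arrays, and the likeness is a description with no test.

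Promoters of the 7 genes were read because the genes varied together, though they also varied with the germ cell markers. RefSeq promoters on GRCm38.p6, 250 bases before to 50 after each start site, matched all 7 genes, with 2 start sites each for Hormad1 and Syce2. The E-box CACGTG, which reads the same on both strands, was present at 1 or more start sites of 5 of 7 genes, against 7.15% of all 32851 promoters and 8.09% of genes. The E2F-type motif TCCCGC, searched on both strands, was present in the same 5 genes, Sycp1, Sycp3, Syce2, Tex12 and Hormad1, against 20% of promoters and 22% of genes. The motif CNCCTCAG, a STRA8-type sequence, was found in 3 of 7 genes, Sycp1, Syce2 and Tex12, against 7.94% of promoters and 9.12% of genes. The cyclic AMP response motif TGACGT was found in 0 of 7, against 7.51% of promoters and 8.37% of genes. Sycp2 and Syce1 held none of the 4 motifs in this window. CG dinucleotides numbered 10 to 33 per member promoter, against a median of 7 over all promoters. A match is a run of letters, not evidence that a factor binds there.

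The 250 bases before the start are shown for Sycp1, Sycp3 and Hormad1, from the transverse filament, the lateral element and the unsynapsed axis, with matches to the 4 motifs in capitals. Sycp3 and Hormad1 have 2 E-boxes each and Sycp1 has 1. The E2F-type and STRA8-type matches of Sycp1 begin at bases 3 and 33 after the start, outside the stretch shown.
Sycp1 (chr3:102936101-102936350, minus strand): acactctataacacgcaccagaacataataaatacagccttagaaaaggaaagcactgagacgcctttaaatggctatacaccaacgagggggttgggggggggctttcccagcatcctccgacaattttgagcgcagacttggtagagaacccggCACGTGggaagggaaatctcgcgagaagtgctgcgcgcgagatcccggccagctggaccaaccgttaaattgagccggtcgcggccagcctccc
Sycp3 (chr10:88459337-88459586, plus strand): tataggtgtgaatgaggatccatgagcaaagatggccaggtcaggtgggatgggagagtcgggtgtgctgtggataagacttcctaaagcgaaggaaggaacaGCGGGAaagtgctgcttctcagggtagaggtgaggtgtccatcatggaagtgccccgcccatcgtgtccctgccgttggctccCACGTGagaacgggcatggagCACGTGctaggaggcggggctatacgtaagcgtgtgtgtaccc
Hormad1 (chr3:95559427-95559676, plus strand): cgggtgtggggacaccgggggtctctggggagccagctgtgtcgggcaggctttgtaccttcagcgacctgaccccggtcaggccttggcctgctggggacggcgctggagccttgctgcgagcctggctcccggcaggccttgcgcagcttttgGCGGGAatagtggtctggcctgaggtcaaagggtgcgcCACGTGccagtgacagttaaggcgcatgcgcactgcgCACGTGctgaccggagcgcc
In Sycp1 the E-box begins 94 bases before the start, in Sycp3 at 64 and 43 bases and in Hormad1 at 57 and 20 bases. The capitals upstream of the E-boxes in Sycp3 and Hormad1 are the E2F-type motif read on the other strand, 147 and 95 bases before the start. The Tex12 E-box begins 93 bases before its start and that of Syce2 88 bases before its second start site. The E-boxes thus lie 20 to 94 bases before a start site in the 5 genes.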

How the data were processed

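Total RNA from testes was labeled with Cy3 and hybridised to 1-colour Agilent arrays, 1 sample per array. The authors extracted signals with Agilent Feature Extraction 9.5.3.1 and deposited processed signals as linear intensity values, background-subtracted and not scaled between arrays. The deposited value table held the same values. The methods name GeneSpring GX and no normalization. Outlier-marked spots (58 to 134 per array) were left out, spots of a probe were averaged, and log2 intensity was computed minus the log2 75th percentile of each array. The number of arrays limits the precision. Probes were named by RefSeq accession, symbol or synonym (GRCm38.p6 table), and 8437 of 41174 kept the file's name.

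Probes well above background on 4 of 8 arrays were tested with limma 3.58.1 in R 4.3.3, genotype as the only term and Benjamini-Hochberg adjustment over 26962 probes. Genes of the lists were represented by their brightest tested probe. Of each list, genes called and those at the low and high ends were named. The labels call the samples biological replicates. Same-numbered samples showed correlations of deviations of 0.468, 0.0734, 0.188 and -0.138. So few values cannot decide whether the numbers pair the samples, and the main fit treated them as unpaired. The fit was tested on simulated data. Alternatives covered scaling, background correction, filter, slide, replicate block, each array left out, the methods' t-test, and a limma intensity trend. Some genes that the naming rule picks are not reported here. The members and lists were chosen with earlier results of these data known.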

Additional observations from a re-analysis of the deposited data

Results flagged for a closer look

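A single group of 4 arrays among 24 (12 probes, each in both genotypes) had an extreme array past the 95% critical value of Dixon's ratio, which chance exceeds in about 1 of 20 groups. It was the dim Hormad1 probe A_51_P497870 in VRK1-deficient testis, where replicate 3 was highest and its gap to the next array took 0.915 of the range of the group. That array was the only mutant array on which this probe was well above background. Without it the change of the probe was -1.93 (limma adjusted p = 0.0863).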

How the results depend on the processing

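Direction was kept by the tested member probes under every alternative tried except Hormad1 A_51_P497870, which was at 0.13 after normexp background correction (adjusted p = 0.575). The call of Sycp2 A_51_P274409 was lost with no filter on dim probes (-1.67, adjusted p = 0.0835; 0 members and 17 of 41174 probes called), within slide 1 (-1.47, 0.500; 0 members and 3 probes) and under the methods' t-test (-1.67, 0.0839; 0 members and 162 probes), which at its unadjusted threshold named 5 of 10 member probes and 13% of all tested probes as lower. Other alternatives added calls, given here with log2 change and adjusted p: no scaling between arrays, which moved the median of all tested probes from 0.04 to -0.14, Sycp1 (-1.58, 0.0348), Syce1 (-1.42, 0.0427), Tex12 A_51_P116609 (-1.48, 0.0486) and Tex12 A_52_P215798 (-1.51, 0.0460) (5 members, 3.16% of all tested probes called lower); normexp, Sycp1 (-1.29, 0.0363), Syce1 (-1.19, 0.0420) and Tex12 A_51_P116609 (-1.22, 0.0308) (4 members, 2.39%), with smaller changes for Sycp2 A_51_P274409 (-0.76, 0.0447, still called), Sycp2 A_52_P96542 (-0.71, 0.143), Sycp3 (-0.93, 0.0955) and Hormad1 A_51_P497875 (-0.58, 0.104); detection on all 8 arrays, Sycp1 (-1.40, 0.0487) (2 members, 3.08%); a limma intensity trend with robust variances, Sycp1 (-1.40, 0.0423) and Syce1 (-1.24, 0.0448) (3 members, 3.91%, 1916 probes); and slide 2 alone, Sycp1 (-1.91, 0.0354), Sycp2 A_52_P96542 (-1.89, 0.0354), Sycp3 (-1.96, 0.0354), Syce1 (-1.65, 0.0400), Tex12 A_51_P116609 (-1.80, 0.0417), Tex12 A_52_P215798 (-1.87, 0.0371) and Hormad1 A_51_P497875 (-1.63, 0.0354) (8 members). With the slide as a block, 641 probes were called against 986. With the replicate number as a block, 2280 probes (5.71% lower) and 9 members were called, newly Sycp1 (-1.40, 0.0296), Sycp2 A_52_P96542 (-1.47, 0.0249), Sycp3 (-1.40, 0.0322), Syce1 (-1.24, 0.0345), Tex12 A_51_P116609 (-1.30, 0.0345), Tex12 A_52_P215798 (-1.33, 0.0325), Hormad1 A_51_P497870 (-1.32, 0.0428) and Hormad1 A_51_P497875 (-1.14, 0.0440). Whether the numbers pair the samples was not settled, and 3 of 4 wild type arrays correlated best with their own number.

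Leaving out 1 array at a time gave changes of Sycp1 -1.74 to -1.20, Sycp2 A_51_P274409 -1.98 to -1.48, Sycp2 A_52_P96542 -2.02 to -1.13, Sycp3 -1.94 to -1.07, Syce1 -1.58 to -1.06, Syce2 -0.99 to -0.59, Tex12 A_51_P116609 -1.68 to -1.10, Tex12 A_52_P215798 -1.73 to -1.10, Hormad1 A_51_P497870 -1.93 to -1.09, Hormad1 A_51_P497875 -1.59 to -0.88. Without wild type replicate 1, 9 members and 7659 probes were called, and without any other array 0 members and 3 to 68 probes. Why the calls moved was not tested. Hormad1 A_51_P497870 was well above background on 4 of 8 arrays, the fewest that allowed a test.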
